A study of Danio rerio and Xenopus laevis and Xenopus tropicalis with 8 samples.

Results

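The enveloping layer cells of the zebrafish embryo at 6 h were examined with scSLAM-seq, a single-cell method that tells new RNA from RNA already present at fertilization. They were chosen by their own readout. A barcode counted as a cell when it held 150 or more genes as labeled RNA and 150 or more as unlabeled RNA. Of 6847 such cells, 106 (1.55%) had 20 or more counts of krt4, krt92 and krt97 together, labeled and unlabeled counts added up. These 106 barcodes are called enveloping layer cells here, and the 6741 remaining barcodes are called other cells. Both classes came out of a single library of pooled AB wildtype embryos, injected with 4sUTP directly after fertilization, grown to shield stage, dissociated and fixed in methanol before droplet capture. The library has no replicate and no uninjected partner among the samples used here, so no test between the classes was made. Every interval below is a 95% interval for counting error only. The only other samples used were 3 wildtype embryos at the one-cell stage, cut into sections for tomo-seq, which gave the RNA level of each gene before transcription of the embryo's own genome begins.

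The enveloping layer is the outermost epithelium of the fish blastula and gastrula, a sheet that is 1 cell thick. It is set apart from the deep cells before gastrulation, spreads over the yolk during epiboly, and later forms the periderm, the outer layer of the embryonic skin. Its cells are flat, are joined by tight junctions and desmosomes, carry keratin filaments and an actin-rich apical cortex, and depend on transcription factors such as Klf17 and the Grainyhead-like family. In the labeling scheme, RNA made after injection carries 4-thiouridine, which reads as T-to-C changes after chemical conversion. RNA without these changes is called unlabeled and is taken as maternal.

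The cells around the threshold were as follows. The sum of the rule genes was 0 in 5685 other cells (84.3%), 1 to 4 in 1009 and 5 to 19 in 47. Among the enveloping layer cells it ran between 20 and 616 counts, with a median of 54.5 counts or 1.37% of a cell's counts. The sum fell at 20 to 49 in 44 enveloping layer cells, at 50 to 99 in 34, from 100 to under 200 in 15, and at 200 or more in 13. Just inside the threshold, the 9 cells with sums of 20 to 24 held 10, 15 and 33 counts of krt8 and 3, 5 and 9 counts of cldne (lowest, median, highest). Just outside, the 10 cells with sums of 15 to 19 held 4, 13.5 and 25 counts of krt8 and 0, 4.5 and 11 counts of cldne. The threshold therefore lay within a continuous range, and because it is a number of counts it took up deep barcodes more easily than shallow ones. A rule of 1% of the counts would have chosen 85 cells, 75 of them among the 106.

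The rule genes themselves were mostly new RNA in the chosen cells, given here as a description. krt4 had 4096 labeled and 351 unlabeled counts in enveloping layer cells, and 650 and 122 in other cells. krt92 had 1972 labeled and 569 unlabeled counts in enveloping layer cells, and krt97 had 1929 and 486.

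The markers krt8, a keratin of simple epithelia, and cldne, a claudin of tight junctions, matched the name of the class. They were no part of the rule, although their level in the same cells is not independent of it. krt8 stood at 86.2 per 10000 counts in enveloping layer cells and at 0.567 in other cells. cldne stood at 28.1 per 10000 counts in enveloping layer cells and at 0.234 in other cells. The 106 cells held 82.8% of all krt8 counts and 79.2% of all cldne counts in cells. Free RNA was looked at in the 332125 barcodes with under 10 counts, which held 11.3 counts of krt8 and 0.841 of cldne per 10000. The level of both genes over all other cells together was below that in nearly empty barcodes. This did not hold for the 47 other cells with sums of 5 to 19, which held krt8 at 24.4 per 10000 counts. These cells are counted among the other cells throughout, and the numbers of genes past 2-fold without them are 258 higher and 1653 lower in labeled RNA and 135 higher and 722 lower in unlabeled RNA. No barcode outside the 6847 cells reached the sum of 20.

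**Figure D1:**
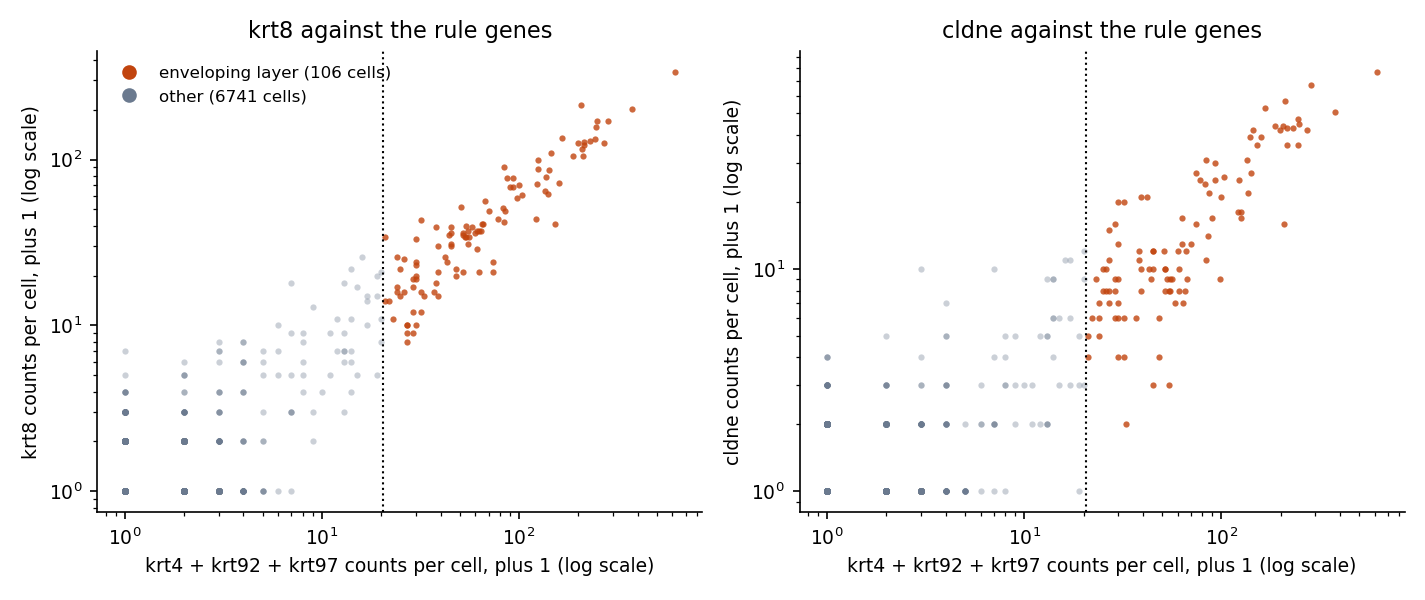
Counts of krt8 (left) and cldne (right) in each cell, plus 1, against the summed counts of krt4, krt92 and krt97, plus 1, both on log scales. Orange points are the 106 enveloping layer cells, grey-blue points the 6741 other cells, and the dotted line is the threshold of 20 counts, across which both markers run without a gap.

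Enveloping layer cells were deeper than other cells. They had a median of 4324.5 counts (1044 to 26259), against 2968 (362 to 27143) in other cells, and a median of 1420.5 genes against 1185. After each cell had been thinned to 1000 counts the order was the other way round, with medians of 527.5 genes in enveloping layer cells and 561 in other cells; 521 other cells were too shallow and no enveloping layer cell was. Genes of the mitochondrial genome named mt- took a median of 4.60% of a cell's counts in enveloping layer cells and 3.91% in other cells. With the mitochondrial entries that carry only a sequence record as a name, the order was the opposite. Their share, here of the counts pooled over a class, was 14.4% in enveloping layer cells and 16.4% in other cells. A doublet caller marked 1 of the 6847 cells, which was not an enveloping layer cell. This was too few to rely on, so no cell was removed. Doublets may remain among the cells, and their number was not measured.

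The first comparison asked how much of the RNA was new. Without the rule genes, 46.03% (45.9% to 46.1%) of the counts were labeled in enveloping layer cells, against 39.4% (39.4% to 39.4%) in other cells, a difference of 6.65 percentage points. The share of a single cell ran between 26.4% and 60.4% in enveloping layer cells, with a median of 46.5%, and between 12.6% and 72.5% in other cells, with a median of 40.2%. The ranges overlapped, and 1276 other cells (18.9%) lay above the enveloping layer median. At matched depth the enveloping layer was higher in each of 4 bins. In bins of 1000 to under 3000, 3000 to under 5000, 5000 to under 10000, and 10000 or more counts, the shares of enveloping layer cells were 41.2%, 42.7%, 46.8% and 48.3%, and those of other cells were 38.4%, 40.2%, 39.8% and 33.3%. Thinned to 1000 counts, enveloping layer cells gave 44.3% and other cells 39.1%. The size of the difference rested on the cells chosen: it was 4.16 points without the 13 cells with sums of 200 or more, and 9.89 points when cells were chosen by a share of 1%. Within the enveloping layer the share moved with the sum of the rule genes and with depth: the pooled shares were 38.3%, 43.2%, 50.9% and 51.7% in the 4 rising classes of the sum, whose median depths were 3320, 4729, 8088 and 15046 counts. The cells with the lowest sums were thus slightly below the other cells in pooled share. The part of depth in this order was not tested.

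**Figure D2:**
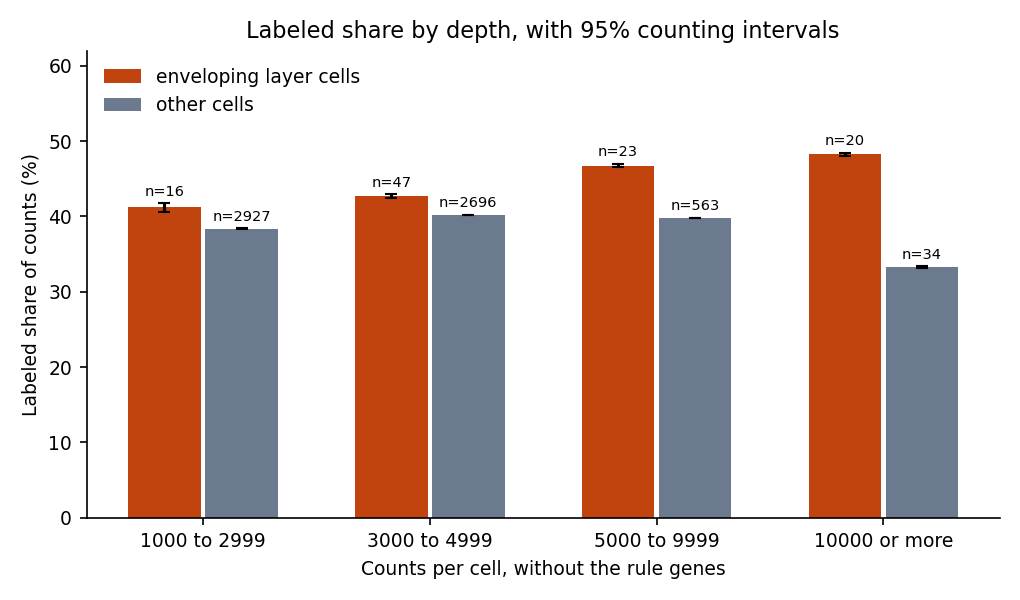
Labeled share of the counts, in percent and without the rule genes, in 4 bins of counts per cell, with the number of cells above each bar. Bars are pooled over the cells of a class (enveloping layer left, other cells right), whiskers are 95% counting intervals, and the enveloping layer bar is the taller one in each bin.

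Marking of new RNA was compared on genes that are close to absent at the one-cell stage. For the 172 genes below 1 CPM (a gene's count scaled to a common library total) in each of the 3 one-cell embryos, the median labeled share was 85.9% in enveloping layer cells and 83.7% in other cells, and the median of the gene-by-gene differences was 1.93 points. Of these genes, 111 had the higher share in enveloping layer cells. The size of the difference depended on the summary: with counts pooled over the 172 genes, the shares were 79.8% in enveloping layer cells and 64.1% in other cells. For the 67 of them with labeled RNA within 2-fold, the medians were 82% and 82.4%, and the median difference was 1.76 points. Thus an unlabeled remainder existed in both classes for genes with little or no maternal RNA. This bears on every unlabeled value below: how much of a gene's unlabeled RNA was such a remainder was not tested. The one-cell table was made on an older annotation (GRCz10, against GRCz11 at 6 h), and a gene missing there reads as 0. spint1a, for example, is listed at 0 CPM in the embryos although only 7.72% of its counts in other cells were labeled.

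Labeled RNA differed widely between the classes. Of 3810 genes with at least 200 labeled counts over all cells, 260 (6.82%) were at least 2-fold higher in enveloping layer cells and 1653 (43.4%) at least 2-fold lower, and the median log2 fold was -0.84. The 260 higher genes took 30.6% of the labeled counts in enveloping layer cells, against 1.74% in other cells, and 102 of the tested genes were 10-fold or more higher. Scaling by the trimmed mean of M values (TMM) shifted every labeled log2 fold by 0.25, after which 306 genes were higher and 1371 lower. Higher calls made up 13.6% of all calls by totals and 18.2% by TMM. A total of 88 higher genes reached 200 counts only with the enveloping layer cells included. Passing the filter in this way favours a higher fold, so the direction of such genes is not independent of it. The remaining 172 higher genes are 4.67% of the 3684 genes with 200 counts in other cells alone.

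Unlabeled RNA differed less. Of 3850 genes, 134 (3.48%) were at least 2-fold higher in enveloping layer cells and 724 (18.8%) at least 2-fold lower, with a median log2 fold of -0.27. These calls, like those in labeled RNA, rest on the fold alone. The interval of a called gene can include equal levels, as that of tjp1b does below, and how many do was not counted. Only 14 genes were 10-fold or more higher. A total of 114 of the 134 had 200 counts in other cells alone. The higher genes took 3.79% of the unlabeled counts in enveloping layer cells and 0.770% in other cells. Of the 2604 genes tested in both kinds of RNA, 129 were higher in labeled RNA and 82 in unlabeled RNA. The 43 genes higher in both are 33.3% of the 129 and 52.4% of the 82.

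**Figure D3:**
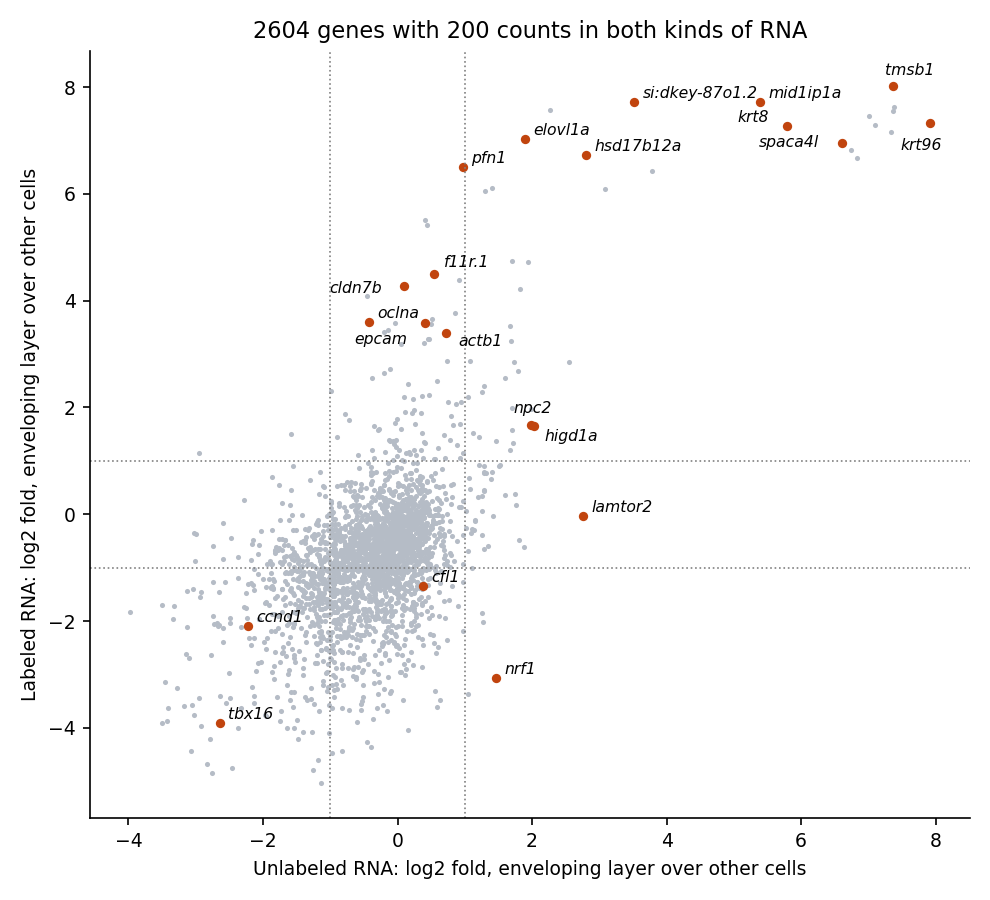
The log2 fold of labeled RNA (vertical) against that of unlabeled RNA (horizontal), enveloping layer over other cells, for the 2604 genes with 200 counts of each kind, 1 point a gene. Dotted lines mark 2-fold; labelled orange points are genes described in the text, with tmsb1, krt96 and krt8 high on both axes, pfn1, epcam and oclna high on the labeled axis alone, and lamtor2 on the unlabeled axis alone.

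Keratins, the intermediate filament proteins of epithelia, led the labeled RNA. Of 16 listed keratins apart from the rule genes, 8 had 200 labeled counts and all 8 were higher, where 6.82% of all genes tested were. The median log2 fold of these keratins was 7.26, beside -0.84 over all genes. Only 4 of them had 200 counts in other cells alone. The rest, krt5 among them, passed the filter only through the enveloping layer cells, which favours a higher fold. Summed over the list, an enveloping layer cell held 67.4, 265 and 894 keratin counts per 10000 (lowest, median, highest), while other cells had a median of 0 and a highest value of 566. Several genes of this and the following epithelial lists are also in the study's own set of enveloping layer markers, which was made on these cells, so their direction is not independent evidence.

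krt8 gave 6, 34 and 307 labeled counts in an enveloping layer cell (lowest, median, highest), and at most 24 in another cell, with labeled counts in 514 other cells. Every enveloping layer cell held it, and the ranges overlapped between 6 and 24 counts. Its labeled level was 17826 CPM in enveloping layer cells and 116 CPM in other cells, a fold of 154 (143 to 165). krt18a.1, a type I partner keratin, gave 6, 27.5 and 250 labeled counts in enveloping layer cells and at most 16 in another cell, a fold of 102 (96.04 to 109). krt5, a type II keratin of surface epithelium, was found as labeled RNA in 98 of 106 enveloping layer cells and 134 other cells, a fold of 208 (176 to 248). These keratins were thus found in nearly every enveloping layer cell. Elsewhere they were most frequent just under the threshold: krt8 was found in all 10 other cells with sums of 15 to 19, and krt5 in 90% of these.

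The unlabeled keratin RNA was also higher, for all 5 keratins with 200 unlabeled counts, with a median log2 fold of 7.10. Over all genes tested, 3.48% were higher in unlabeled RNA. Only 2 of the 5 had 200 unlabeled counts in other cells alone, and the remaining 3 passed the filter only through the enveloping layer cells. krt8 was 55.3-fold (46.8 to 65.6) and krt18a.1 114-fold (97.4 to 133) higher in unlabeled RNA. Of the krt8 counts, 93.8% were labeled in enveloping layer cells and 80.5% in other cells, and krt8 stood at 6.46, 2.996 and 5.29 CPM in the one-cell embryos. For krt18a.1 the labeled shares were 86.4% in enveloping layer cells and 84.3% in other cells. The unlabeled counts of krt8 and krt18a.1 were thus a small part of their RNA.

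krt96, cyt1 and cyt1l had lower labeled shares, of 28.8%, 77.1% and 72.5% in enveloping layer cells. krt96 had the largest unlabeled fold among the named genes, 241 (204 to 286), with 0, 6 and 91 unlabeled counts in enveloping layer cells and at most 4 in another cell. In other cells 31.5% of its counts were labeled. In the one-cell embryos, the entry that holds krt96 stood at 0.29, 0.00 and 0.09 CPM, so a low labeled share went here with a near absence of maternal RNA; that entry joins krt96 with the rule gene krt97. cyt1 and cyt1l, type I keratins, were 162-fold (128 to 206) and 137-fold (107 to 178) higher in unlabeled RNA. In the one-cell table both share an entry with the rule gene krt92 and with krt17. krt96, cyt1, cyt1l and krt17 thus shared entries with rule genes, and their sequences were not compared. Counts may have been split between them and the rule genes at 6 h as well, and their values are therefore uncertain and not apart from the rule. krt8, krt18a.1, krt5 and krt99, which had entries of their own, were higher without them.

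Of 23 listed tight junction genes, 7 had 200 labeled counts and all 7 were higher, with a median log2 fold of 4.51. Of the 7, 4 had 200 counts in other cells alone, and the remaining 3 passed the filter only through the enveloping layer cells. In unlabeled RNA, 9 were tested, 1 was higher and 1 lower (2 with TMM), with a median of 0.04 that became -0.0045 with TMM. The shares over all genes tested were 6.82% higher in labeled RNA, and 3.48% higher and 18.8% lower in unlabeled RNA. cldne gave 1, 9.5 and 67 labeled counts in enveloping layer cells, against at most 10 in another cell, and its labeled fold was 105 (94.98 to 117). cldnb and cldn23a, further claudins, were 133-fold (100 to 179) and 186-fold (141 to 249) higher. These 3 claudins had next to no unlabeled RNA in other cells, at most 2.86 CPM for cldne.

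A second set of junction genes had unlabeled RNA in both classes of cells, though it was not found in every cell. cldn7b was 19.3-fold (15.5 to 23.96) higher in labeled RNA and 1.07-fold (0.794 to 1.41) in unlabeled RNA. oclna, an occludin, was 12.1-fold (9.99 to 14.6) higher in labeled RNA and stood at 0.746-fold (0.563 to 0.969) in unlabeled RNA. f11r.1, a junctional adhesion molecule, was 22.7-fold (19.97 to 25.8) higher in labeled RNA and 1.45-fold (1.199 to 1.74) in unlabeled RNA. cldnd differed from all of these: its unlabeled RNA was 2.32-fold (1.85 to 2.88) higher and only 5.32% of its counts in enveloping layer cells were labeled, against 5.02% in other cells. It was also abundant at the one-cell stage, with 13922, 11409 and 2030 CPM in the 3 embryos. tjp1b, a scaffold of tight junctions, was lower in unlabeled RNA at 0.294-fold (0.0353 to 1.07), on few counts.

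Of the 20 genes of adhesion and desmosomes, 10 had 200 labeled counts, of which 9 were higher and none lower, with a median log2 fold of 3.56. Among these 10, 6 had 200 counts in other cells alone, of which 5 were higher. The remainder passed the filter only through the enveloping layer cells. In unlabeled RNA 1 of 6 was higher, with a median of 0.33. The shares of higher genes over all genes tested were 6.82% in labeled and 3.48% in unlabeled RNA. eppk1, evpla and ppl, of the plakin family, were 184-fold (144 to 239), 171-fold (117 to 259) and 167-fold (126 to 226) higher in labeled RNA. epcam, an epithelial adhesion molecule, gave 0, 8.5 and 72 labeled counts in enveloping layer cells and at most 10 in another cell, a fold of 12.02 (11.2 to 12.9). In unlabeled RNA it gave 0, 2 and 15 counts in enveloping layer cells and at most 29 in another cell, a fold of 1.33 (1.19 to 1.48). The classes overlapped in both kinds of RNA, with 1875 other cells holding labeled epcam, and stood further apart in labeled than in unlabeled RNA.

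cdh1, the E-cadherin of adherens junctions, was 10.9-fold (8.42 to 13.97) higher in labeled RNA and 0.911-fold (0.689 to 1.18) in unlabeled RNA. Among its partners, the catenins ctnna1 and ctnnd1 were 3.88-fold (2.64 to 5.55) and 2.29-fold (1.71 to 3.01) higher in labeled RNA, and ctnnb1, which also acts in Wnt signalling, stood within 2-fold at 0.614 (0.412 to 0.880). jupa, a plakoglobin, was 11.6-fold (8.88 to 15) higher in labeled RNA and, as the only gene of the list, also higher in unlabeled RNA, 3.18-fold (2.02 to 4.79).

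Of the 24 genes of the actin and membrane cortex, 13 had 200 labeled counts, of which 10 were higher and 2 lower (median log2 fold 4.54). Only 8 had 200 counts in other cells alone, of which 5 were higher. The remaining higher genes passed the filter only through the enveloping layer cells. In unlabeled RNA 2 of 10 were higher (median 0.48). Over all genes tested, 6.82% were higher and 43.4% lower in labeled RNA, and 3.48% were higher in unlabeled RNA. tmsb1, a thymosin that binds free actin, gave 0, 22.5 and 646 labeled counts in enveloping layer cells and at most 26 in another cell, with a labeled fold of 261 (241 to 283). pfn1, a profilin that supplies actin for filament growth, gave 3, 32 and 507 labeled counts in enveloping layer cells and at most 20 in another cell, a fold of 90.3 (85.7 to 95.2). Its unlabeled RNA was 1.97-fold (1.83 to 2.11) higher, just short of 2-fold. Labeled pfn1 was therefore in every enveloping layer cell, in a background of unlabeled pfn1 in both classes.

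Other genes of actin handling moved less, or the other way. lcp1, an actin bundling plastin, and anxa1c, an annexin of the membrane cortex, were 196-fold (144 to 273) and 244-fold (173 to 355) higher in labeled RNA. The actins actb1 and actb2 were 10.5-fold (9.55 to 11.5) and 2.89-fold (2.68 to 3.11) higher in labeled RNA and 1.65-fold and 1.28-fold in unlabeled RNA. The cofilin genes cfl1l and cfl1, whose products sever actin filaments, split: cfl1l was 4.59-fold (4.01 to 5.24) higher in labeled RNA, while cfl1 was lower at 0.394-fold (0.300 to 0.509). msna, a moesin that links actin to the membrane, was lower as well at 0.308-fold (0.113 to 0.676). Both lower genes had unlabeled RNA within 2-fold, cfl1 at 1.30 and msna at 1.29.

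Of 21 listed transcription factors of surface epithelium, 7 had 200 labeled counts, of which 6 were higher and 1 lower (median log2 fold 4.00). Only 3 had 200 counts in other cells alone, of which 2 were higher. The remaining 4 passed the filter only through the enveloping layer cells. Among all genes tested in labeled RNA, 6.82% were higher and 43.4% lower. grhl3, a Grainyhead-like factor of epithelial barriers, gave 0, 2 and 14 labeled counts in enveloping layer cells and was found in 81 of 106 of them, against 39 other cells and at most 2 counts. Its fold was 151 (109 to 214). klf17, a Krüppel-like factor of the enveloping layer and hatching gland, was 44.8-fold (36.3 to 55.5) higher and cebpb, a bZIP factor, 130-fold (108 to 159). tfap2a and klf2b were 16.1-fold (12.1 to 21.1) and 6.09-fold (4.42 to 8.25) higher. tfap2c, a factor of the same AP-2 family as tfap2a, was lower at 0.0752-fold (0.00910 to 0.273).

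Genes of sphingolipid and fatty acid metabolism were divided. Of 24 listed, 9 had 200 labeled counts, of which 5 were higher and 3 lower (median log2 fold 6.73). None of the 5 had 200 counts in other cells alone, so all of them passed the filter only through the enveloping layer cells. Among all genes tested in labeled RNA, 6.82% were higher and 43.4% lower. elovl1a, an elongase of long fatty acids, was 131-fold (103 to 168) higher, and hsd17b12a, a reductase of the same elongation cycle, 106-fold (83.5 to 135). Both were also higher in unlabeled RNA, 3.71-fold (2.57 to 5.21) and 6.995-fold (5.71 to 8.51). degs2, a ceramide desaturase and hydroxylase, was 123-fold (90.5 to 170) higher, whereas its relative degs1 was lower at 0.0387-fold (0.000980 to 0.217), on 1 labeled count in enveloping layer cells. cers2b, a ceramide synthase, was lower at 0.124-fold (0.0338 to 0.319).

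Membrane serine proteases and their inhibitors were higher in labeled RNA in 3 of 3 genes tested (median log2 fold 2.55) and in 1 of 5 in unlabeled RNA (median -0.29). Only 1 of the 3 had 200 labeled counts in other cells alone, so the remaining 2 passed the filter only through the enveloping layer cells. The shares of higher genes over all genes tested were 6.82% in labeled and 3.48% in unlabeled RNA. The protease st14a, a matriptase, was 2.97-fold (2.20 to 3.96) higher, and the inhibitors spint1a and spint2 5.86-fold (3.99 to 8.39) and 11.96-fold (8.73 to 16.2). esrp1, an epithelial splicing regulator, was 103-fold (78.1 to 139) higher in labeled RNA. It did not have 200 labeled counts in other cells alone, so it too passed the filter only through the enveloping layer cells.

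**Figure D4:**
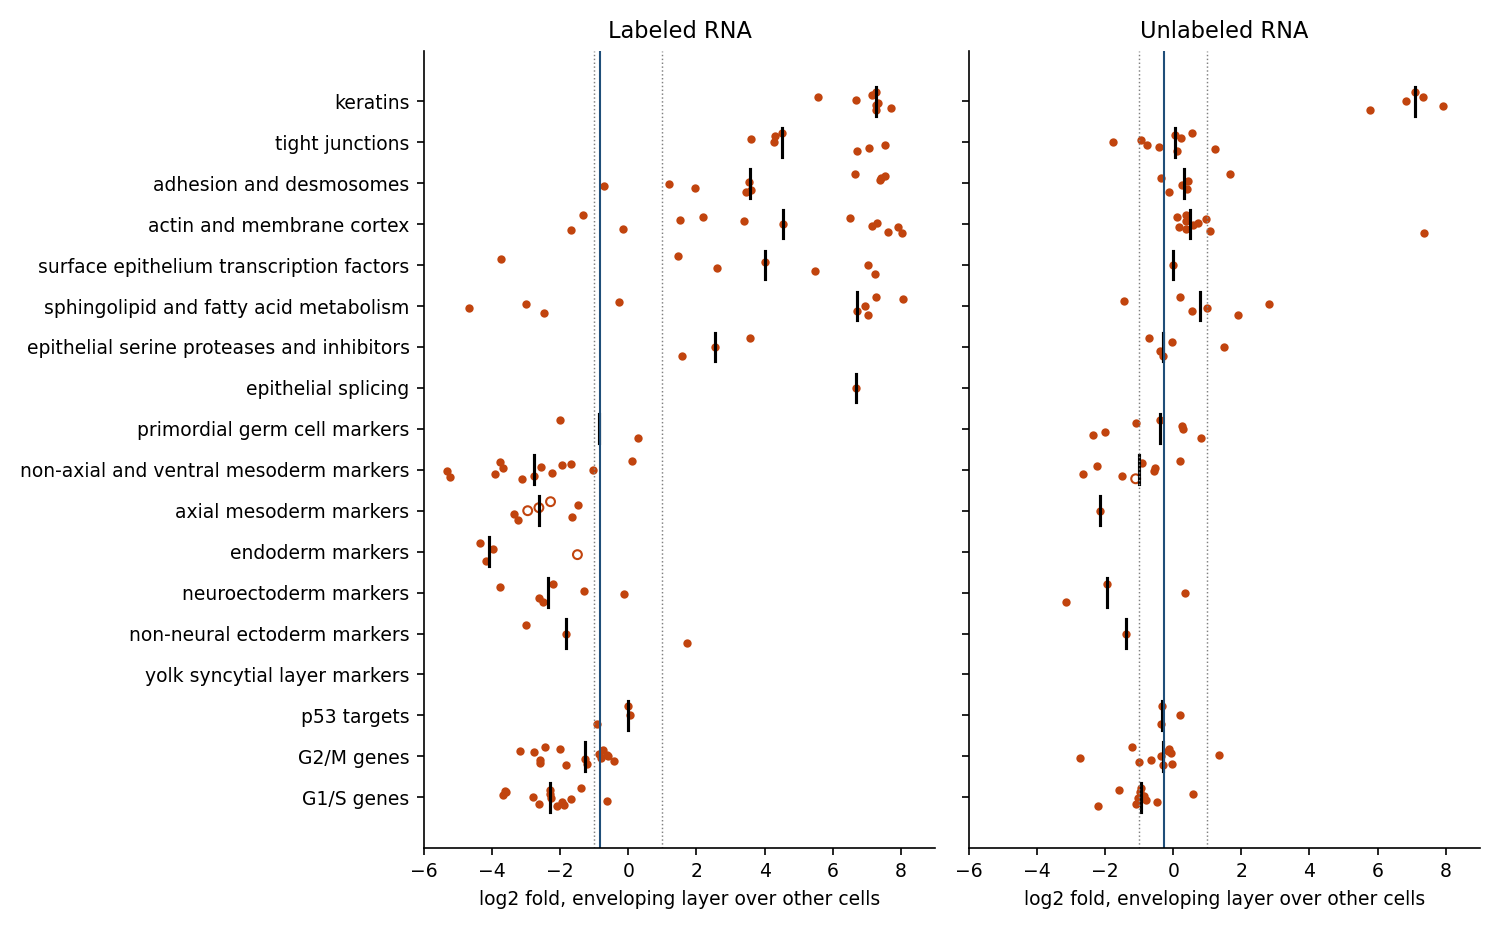
The log2 fold, enveloping layer over other cells, of each tested gene of 18 gene lists in labeled (left) and unlabeled RNA (right), 1 point a gene. Black bars are list medians, the blue line is the median of all tested genes (-0.84 and -0.27), dotted lines mark 2-fold and open circles are bounds for genes at 0 in enveloping layer cells; keratins stand high in both panels, junction and cortex lists in the labeled panel.

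The genes that led the labeled RNA by fold included several with no place in the lists. agr1, an anterior gradient protein of the secretory pathway, was 304-fold (213 to 448) higher, and svopl, a putative transporter, 270-fold (180 to 421). mgll, a monoglyceride lipase from the list of fatty acid metabolism above, was 269-fold (191 to 391) higher. agr1, svopl and mgll had 33, 26 and 36 labeled counts in other cells. All of them passed the filter only through the enveloping layer cells, which favours a higher fold. ponzr5, of the plac8 related family, was 198.5-fold (181 to 219) higher and mid1ip1a, a regulator of lipid synthesis, 210-fold (184 to 241). spaca4l, of the Ly6 family, was the most abundant of those described here, at 30668 CPM of labeled RNA in enveloping layer cells and 247.8 CPM in other cells. It gave 3, 53.5 and 677 labeled counts in enveloping layer cells and at most 30 in another cell. zgc:193505 gave 3, 33 and 401 labeled counts in enveloping layer cells and at most 24 in another cell, and was higher in labeled RNA 188-fold (174 to 204) and in unlabeled RNA 166-fold (141 to 195). With 190 unlabeled counts in other cells, its unlabeled RNA passed the filter only through the enveloping layer cells.

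A group of genes had old RNA in both classes and more new RNA in the enveloping layer. It was set apart by 3 measures: labeled RNA at least 2-fold higher, unlabeled RNA within 2-fold, and a mean of at least 10 CPM in the one-cell embryos. This held for 75 genes, whose median labeled share was 63.2% in enveloping layer cells and 19.8% in other cells. For all 2311 genes tested in both kinds of RNA with 10 CPM at the one-cell stage, the medians were 42.8% and 42.6%. The direction of the share follows from the choice of the 75 genes, and its size is a description. In 21 of the 75, over 50% of the counts were labeled in enveloping layer cells and under 25% in other cells.

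These 21 genes, chosen after their values were seen, included epithelial and cytoskeletal genes described above and others. pfn1 was labeled to 88.1% in enveloping layer cells and 10.9% in other cells, f11r.1 to 78.5% in enveloping layer cells and 15.1% in other cells, and epcam to 76.2% in enveloping layer cells and 21.2% in other cells. The share in enveloping layer cells was 73.6% for cldn7b, 73.7% for oclna and 60.5% for cdh1, against 10.5%, 11.6% and 8.91% in other cells. Outside adhesion and actin, fuca1.1, a lysosomal fucosidase, was labeled to 83.4% in enveloping layer cells and 10.02% in other cells. For ywhaqa, a 14-3-3 protein, and canx, a chaperone of the endoplasmic reticulum, the shares were 79.2% and 75.2% in enveloping layer cells, against 11.1% and 23.5% in other cells. alas1, which starts heme synthesis, had 63.9% in enveloping layer cells and 10.9% in other cells, and yap1, the effector of Hippo signalling, 61.7% in enveloping layer cells and 14.7% in other cells. In each of these genes, new RNA was the larger part in the enveloping layer and the smaller part elsewhere, as the choice required.

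The maternal RNA of the same genes was present at the one-cell stage in every embryo. oclna stood at 1382, 446 and 576 CPM, f11r.1 at 826, 580 and 485, cdh1 at 583, 582 and 636, and epcam at 217, 215 and 1518. epcam thus varied widely between embryos and cdh1 little. pfn1 stood at 893, 971 and 992 CPM in an entry that joins 12 gene IDs, so its own level is not known.

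**Figure D5:**
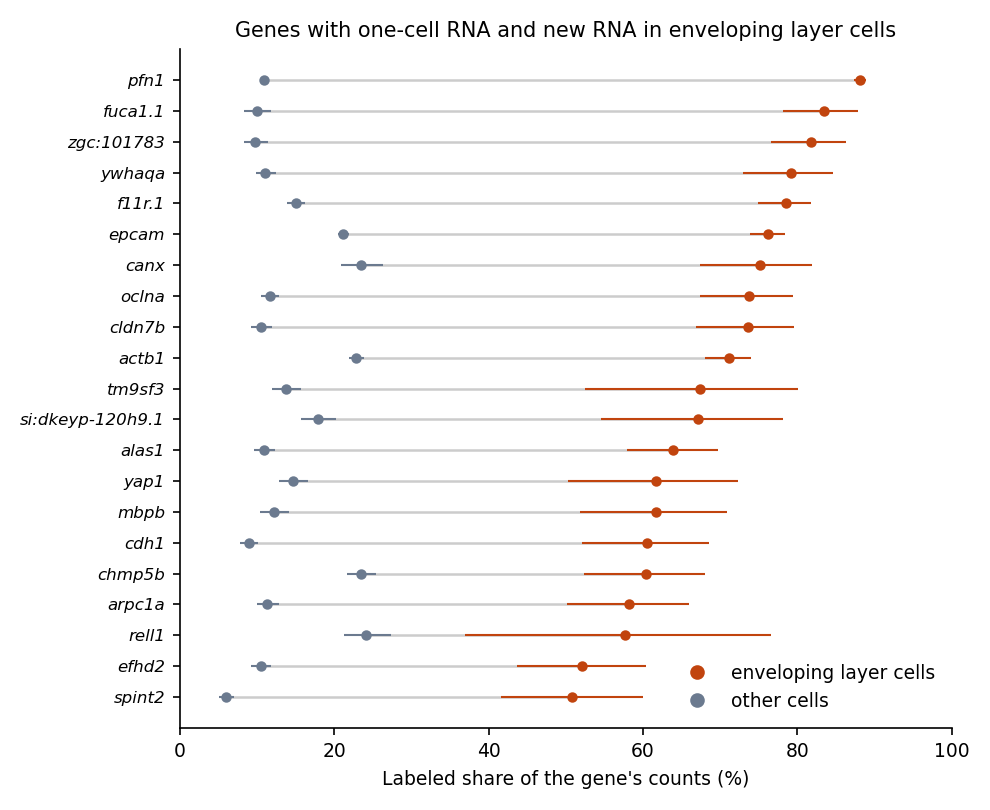
Labeled share of the counts of each of 21 genes, in percent, in enveloping layer cells (orange) and other cells (grey-blue), with 95% counting intervals. The genes were chosen by these shares, over 50% and under 25%; the enveloping layer values lie between 50.8% for spint2 and 88.1% for pfn1.

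Another set of genes differed in unlabeled RNA. Of the 134 genes higher in unlabeled RNA, 107 (79.9%) reached 10 CPM in the one-cell embryos, against 87.8% of all genes tested, and 10 lay below 1 CPM in every embryo. Of the 260 genes higher in labeled RNA, 167 (64.2%) reached 10 CPM, against 76.8% of all genes tested, and 51 lay below 1 CPM. The 107 genes thus had RNA before transcription began and more unlabeled RNA in the enveloping layer at 6 h.

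Examples of this set were chosen after their values were seen. npc2, a lysosomal cholesterol carrier, had 3899 CPM of unlabeled RNA in enveloping layer cells and 989.7 CPM in other cells, a fold of 3.94 (3.72 to 4.17), and its labeled share was close, at 7.70% in enveloping layer cells and 7.32% in other cells. It stood at 36.1, 201 and 456 CPM in the one-cell embryos. higd1a, a mitochondrial protein of the hypoxia response, was 4.07-fold (3.55 to 4.65) higher in unlabeled RNA, with labeled shares of 31.6% in enveloping layer cells and 31.4% in other cells. acp5a, an acid phosphatase, was 2.78-fold (2.41 to 3.20) higher in unlabeled RNA with labeled shares of 4.89% in enveloping layer cells and 4.85% in other cells. For npc2 and higd1a the labeled RNA was higher as well, 3.17-fold and 3.13-fold, while acp5a had too few labeled counts to be compared.

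In other genes only the unlabeled RNA was higher. lamtor2, of the Ragulator complex on lysosomes, was 6.77-fold (5.02 to 8.99) higher in unlabeled RNA and 0.973-fold (0.598 to 1.502) in labeled RNA. pttg1ipb was 3.03-fold (2.65 to 3.44) higher in unlabeled RNA and 1.29-fold (0.728 to 2.12) in labeled RNA. Among 82 genes higher in unlabeled RNA and tested in both kinds, 35 had labeled RNA within 2-fold and 4 had it lower. nrf1, a factor of mitochondrial gene expression, was 1 of the 4, at 2.77-fold (1.52 to 4.68) in unlabeled RNA and 0.119-fold (0.00300 to 0.670) in labeled RNA, on 1 labeled count in enveloping layer cells. With 195 unlabeled counts in other cells and 15 in enveloping layer cells, its unlabeled RNA passed the filter only through the latter.

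Markers of the germ layers were low in the labeled RNA of enveloping layer cells. Of 13 genes of non-axial and ventral mesoderm, none was higher and 12 were lower (11 with TMM), where 43.4% of all genes tested were lower. The median log2 fold was -2.76, beside -0.84 over all genes. The remaining gene, ved, was within 2-fold and is described below. tbx16, a T-box factor of paraxial mesoderm, had labeled counts in 8 of 106 enveloping layer cells, with at most 4 counts, and in 2717 of 6741 other cells, with at most 11. Its fold was 0.0665 (0.0343 to 0.116) in labeled and 0.161 (0.0331 to 0.472) in unlabeled RNA. All 7 axial mesoderm genes tested were lower (median -2.63, with 3 of the 7 at 0 in enveloping layer cells and taken at their bound), among them gsc, the organizer homeobox gene, with a fold of at most 0.129 when 3 counts are assumed. All 4 endoderm genes were lower (median -4.08), with sox32, which sets off endoderm in fish, at 0.0551-fold (0.0114 to 0.161).

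The ectoderm lists were not uniform. Over all genes tested, 43.4% were lower in labeled RNA, with a median log2 fold of -0.84. Of 6 neuroectoderm genes, 5 were lower (median -2.36): sox3 stood at 0.163-fold (0.106 to 0.242), while sox19a, a broadly expressed early SoxB gene, stood at 0.906-fold (0.735 to 1.11). Of 3 genes of non-neural ectoderm, bambia and foxi1 were lower, at 0.124-fold (0.0749 to 0.195) and 0.279-fold, and gata2a, a GATA factor, was higher at 3.28-fold (2.18 to 4.77). With 3 genes, this list is too small to be told apart from the share over all genes. Outside the ectoderm lists, the ventral homeobox genes ved and vox also parted. ved, the gene of the mesoderm list that was not lower, was 1.07-fold (0.990 to 1.15) in labeled RNA. It was found in 98 of 106 enveloping layer cells and 4725 other cells. vox was lower at 0.313-fold (0.256 to 0.379). Genes of the yolk syncytial layer, which touches the enveloping layer margin, did not reach 200 counts; their summed labeled level was 3.34 CPM in enveloping layer cells and 4.76 CPM in other cells, and 5 of the 6 were at 0 in enveloping layer cells.

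Markers of primordial germ cells, which sit among the deep cells, were not higher in either kind of RNA: 1 of 2 was lower in labeled RNA (median -0.86) and 3 of 7 in unlabeled RNA (median -0.40). Over all genes tested, 43.4% were lower in labeled RNA (median -0.84) and 18.8% in unlabeled RNA (median -0.27). The 2 labeled log2 folds behind the median were -2.01 and 0.29, so they do not show where these markers stand as a set.

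Among all genes with the smallest labeled folds, pcdh8, a protocadherin of paraxial mesoderm, stood at 0.0249 (0.000629 to 0.139), mespaa, a bHLH factor of mesoderm, at 0.0265 (0.000671 to 0.148), and dkk1b, a Wnt antagonist, at 0.0259 (0.000654 to 0.144). Each rested on 1 labeled count in enveloping layer cells. si:ch1073-80i24.3 was firmer, at 0.0369-fold (0.0249 to 0.0527) with 30 counts in enveloping layer cells and 22276 in other cells. In unlabeled RNA the smallest folds belonged to si:dkey-102m7.3 at 0.0638 (0.00161 to 0.357) and ankrd10a at 0.0815 (0.00206 to 0.457), again on few counts.

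Of 14 G1/S genes tested in labeled RNA, 13 were lower and none higher (median log2 fold -2.29), where 43.4% of all genes tested were lower with a median of -0.84. In unlabeled RNA 4 of 10 were lower (5 with TMM, median -0.96), where 18.8% of all genes tested were. ccnd1, the cyclin of G1, gave 0, 0 and 5 labeled counts in enveloping layer cells, in 39 of the 106, and at most 12 in another cell, in 4070 of these. Its fold was 0.234 (0.182 to 0.297) in labeled RNA and 0.214 (0.0784 to 0.468) in unlabeled RNA. pcna, the sliding clamp of replication, stood at 0.201 (0.149 to 0.266) in labeled and 0.556 (0.457 to 0.671) in unlabeled RNA. cdc6 and mcm6, of replication licensing, stood at 0.0808 and 0.0783 in labeled RNA, and mcm2 within 2-fold at 0.649.

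Of 15 G2/M genes, 9 were lower (8 with TMM) and none higher in labeled RNA (median -1.26), which is not far from the 43.4% and -0.84 of all genes tested. In unlabeled RNA 3 of 11 were lower and 1 higher (median -0.30), beside 18.8% lower and 3.48% higher over all genes tested. ccnb1, a mitotic cyclin, stood at 0.282 (0.200 to 0.386) in labeled and 0.813 (0.624 to 1.04) in unlabeled RNA. aurka, a spindle kinase, was the higher one, at 2.53-fold (1.52 to 3.99) in unlabeled RNA and 0.658-fold (0.424 to 0.978) in labeled RNA. Targets of p53 showed no fold of 2 in either kind, 0 of 3 each, with medians of -0.02 and -0.32. Ribosomal protein genes were within 2-fold with 1 exception of 80 in labeled RNA (median -0.47), and their unlabeled median of 0.03 became -0.02 with TMM. Genes of the mitochondrial genome had medians of 0.01 in labeled and 0.47 in unlabeled RNA, where 1 of 11 was higher and, with TMM, 0.

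Enveloping layer cells varied among themselves, and their gene content moved with the sum of the rule genes. In the 4 rising classes of that sum, krt8 stood at 57.4, 81.2, 106 and 106 per 10000 counts. The whole keratin list, with krt8 and without the rule genes, stood at 176, 253, 338 and 335. That list holds krt96, cyt1, cyt1l and krt17, which are not apart from the rule, so part of its rise may be built in. The actin and cortex list stood at 188, 240, 403 and 423, tight junctions at 51.8, 57.1, 80.4 and 72.3, and transcription factors at 19.8, 24.2, 28.3 and 29.5. grhl3 was found in 63.6%, 85.3%, 100% and 100% of the cells. Over the same classes the mesoderm list stood at 23.2, 19.2, 15.6 and 12.2 per 10000 counts, against 28.4 in cells with a sum of 0, and the G1/S list at 14.4, 11.7, 8.33 and 9.56, against 30.4. The cells closest to the threshold were thus also closest to the other cells in these lists. Depth rose over the same classes, and mixed droplets were not removed, and the part of either was not tested.

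To compare cells at equal depth, each was thinned to 1000 counts and the Fano factor, the variance over the mean, was taken for genes with a mean of at least 0.5. Over 157 genes of labeled RNA the median was 1.18, close to the 1 of pure counting. The largest factors among enveloping layer cells belonged to tmsb1 at 7.03, spaca4l at 5.35 and pfn1 at 4.09. In other cells these stood at 2.97, 2.97 and 1.86. The means of these genes were 7.67, 13.73 and 8.575 in enveloping layer cells. In other cells the means were 0.0357, 0.0982 and 0.0921, below the minimum of 0.5, so the factors were not compared at equal mean. For unlabeled RNA the median over 191 genes was 1.09. The largest factor belonged to a mitochondrial entry named only by a sequence record, 17.2 in enveloping layer cells and 12.7 in other cells. cfl1 followed with 5.77 in enveloping layer cells and 3.62 in other cells. Unlabeled cfl1 was at 0 in 60 of the 106 thinned enveloping layer cells (56.6%) and reached 15 counts in a cell, while in other cells 42.8% were at 0 and the highest value was 18. p4hb, a protein disulfide isomerase subunit, was similar, at 3.57 in enveloping layer cells and 3.04 in other cells. The uneven unlabeled cfl1 was therefore shared by both classes.

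Detection at equal depth gave the same order as the folds for the genes listed next, but not for all genes described above. Unlabeled cfl1 was found in 43.4% of thinned enveloping layer cells and 57.2% of other cells, and unlabeled cldn7b in 3.77% and 7.52%, against the order of their folds. Labeled aurka, lower by its fold, was found in 5.66% of enveloping layer cells and 4.70% of other cells. In thinned cells, labeled krt8 was found in 100% of enveloping layer cells and 2.97% of other cells, labeled cldne in 83.02% of enveloping layer cells and 1.77% of other cells, and labeled pfn1 in 94.3% of enveloping layer cells and 7.43% of other cells. Labeled epcam was found in 78.3% of enveloping layer cells and 11.1% of other cells, unlabeled epcam in 38.7% of enveloping layer cells and 31.6% of other cells. The labeled RNA of grhl3 was found in 34.9% of enveloping layer cells and 0.273% of other cells. That of tbx16 had the opposite order, with 0.943% of enveloping layer cells and 19.1% of other cells, as did ccnd1 with 3.77% of enveloping layer cells and 31.3% of other cells. ved was close, with 54.7% of enveloping layer cells and 48.1% of other cells. The shares of krt8 and cldne in other cells include the 47 cells with sums of 5 to 19, whose krt8 level lay above that of nearly empty barcodes.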

How the data were processed

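Enveloping layer cells and other cells of 1 zebrafish scSLAM-seq library at 6 h were compared, with 3 one-cell tomo-seq embryos as a reference for maternal RNA. For the single cells, the authors deposited raw UMI counts per gene and barcode in 2 matrices, labeled (UMIs with more than 1 T-to-C change) and unlabeled, from Cell Ranger 3.0.2 mapping to GRCz11 and STARsolo 2.7.0f counting. How often new RNA carries over 1 change depends on the T bases its reads cover, so labeled shares differ between genes for reasons other than age. For tomo-seq, the authors deposited expected counts per section, corrected for UMI saturation, mapped with STAR 2.5.3a to GRCz10. These versions come from the submitters' processing notes, which also name Seurat 3.1.2 and bcl2fastq 2.18.0.12. The UMI was 6 nt long in embryos 1 and 2 and 4 nt in embryo 3, and the embryos held 10215262, 12689394 and 31887460 counts.

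Counts were summed over the cells of a class, separately for labeled and unlabeled RNA, and scaled to CPM (a gene's count relative to the class total) with totals that leave out krt4, krt92 and krt97. The totals were 299006 labeled and 350615 unlabeled counts in enveloping layer cells and 8189623 and 12607580 in other cells. A gene was compared where it had at least 200 counts of that kind of RNA over all cells ("tested" means this filter only), and "higher" and "lower" mean a fold of at least 2. Cells of 1 library are not replicates, so no p-value is given. Intervals are exact binomial (Clopper-Pearson), for folds conditional on the summed counts, at 95%, and cover counting error only. A class at 0 was taken as 3 counts over the class and its fold is a bound. Section counts were summed per embryo, without spike-ins, to CPM. Scrublet, run in scanpy, marked 0.0146% of the cells, too few to rely on, so no cell was removed. The frog oocyte samples were not used here.

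The genes named without a list are the 15 with the largest fold (at least 50 counts in enveloping layer cells) and the 10 with the smallest fold in each kind of RNA, and the 8 with the largest Fano factor. Any gene of the 18 lists may be named; 233 of 239 listed genes were found. The members, the lists and the rule genes were chosen with earlier results of these data known. A gene named outside these rules was chosen after its values were seen. Alternatives were other rule sums, a rule by share, other filters, totals of all genes, TMM, means over cells and thinning. Cells near the threshold, the cells with the highest sums, and mitochondrial entries were left out in alternatives added after seeing the data. The scripts were tested on simulated data. Python 3.11.15, numpy 2.4.6, scipy 1.17.1, pandas 2.3.3, scanpy 1.11.5 and matplotlib 3.10.9 were used.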

Additional observations from a re-analysis of the deposited data

How the results depend on the processing

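No paired analysis was possible because both classes of cells come from 1 library and no test was made. The labeled share stayed higher in enveloping layer cells in every alternative, but its difference from other cells, 6.65 percentage points, moved. It was 5.80 with a rule sum of 10 counts, 8.72 with 40, 9.89 with a rule of 1% of the counts, 7.20 with totals of all genes, 5.25 as a mean over cells, 5.15 after thinning and 6.40 without mitochondrial entries. Without the 44 enveloping layer cells with sums of 20 to 49, which left 62 cells, it was 9.03, and without those at 200 or more it was 4.16. The numbers of genes past 2-fold were 260 and 1653 higher and lower in labeled RNA, and 134 and 724 in unlabeled RNA. They moved over 1.5 times only where fewer or more genes passed the filter. They became 67, 645, 57 and 359 after thinning. With at least 50 counts they were 666, 2493, 532 and 1219, and with at least 1000 counts 52, 465, 26 and 161. The genes called also changed after thinning. In labeled RNA, 55 of the 67 higher and 471 of the 645 lower genes had the same call without thinning. In unlabeled RNA only 30 of the 57 higher and 167 of the 359 lower genes did. Many unlabeled calls at equal depth were thus other genes. After thinning, mespaa, irak1bp1 and cdc25b (labeled RNA) and ehmt1b (unlabeled RNA) were at 0 in enveloping layer cells, and their upper bounds from 3 assumed counts, 0.531, 0.548, 0.524 and 0.661, no longer show a 2-fold difference. Among the genes taken for the largest or smallest fold in each kind of RNA, none changed direction under the alternatives run. The other genes described in the text, including those close to 1-fold, were not checked in this way. The 107 genes with one-cell RNA became 103 to 108 when an embryo was left out. Depth limits the lowest folds, which rest on 1 to 3 counts in enveloping layer cells, and the unlabeled RNA of genes with strong new RNA. The embryos pooled in the library were not counted here, and no second library shows how far any value would repeat.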
